A study of Arabidopsis thaliana with 2 samples.

Results

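The alternative oxidases and alternative NADH dehydrogenases of Arabidopsis roots were followed through 6 h of aluminium exposure as a set of 10 loci: the alternative oxidase genes AOX1A, AOX1B, AOX1C, AOX1D and AOX2, the dehydrogenase genes NDA1, NDA2, NDB2 and NDB4, and UPOX, a mitochondrial gene named for its rise under oxidative stress. They were found by locus, by a rule that holds no measured value, although the set was proposed with earlier results of these data known. Each had 1 probe on both arrays, out of 20279 loci carried by both. All 10 passed the filters on dim probes, outlier marks and shared loci, which together left 19194 genes in the test.

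The tested material was root RNA of 10-day-old Col-0 seedlings in hydroponics, whose roots were held for 6 h in 10 µM AlCl3 at pH 5.0, and the comparison material was root RNA of Col-0 seedlings of the same age held for 6 h at pH 5.0 with 0 µM AlCl3. Both sets had been raised at pH 5.5 in modified MGRL medium of 2% strength that held 200 µM CaCl2, under 12 h of light a day and at 23 °C. Each 2-colour Agilent array took an aluminium RNA in one dye and a control RNA in the other. There were 2 such arrays, labelled biological replicates, with the aluminium RNA in Cy3 on replicate 1 and in Cy5 on replicate 2. The number of seedlings behind each RNA is not given in the sources used here. Replicate, dye orientation, array layout and scanner software version change together and cannot be told apart.

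In plant mitochondria, electrons can reach oxygen by a route that bypasses proton pumping. Alternative NAD(P)H dehydrogenases pass electrons from NAD(P)H to ubiquinone in place of complex I, the NDA proteins on the matrix side of the inner membrane and the NDB proteins on its outer side, and alternative oxidase passes them from ubiquinol to oxygen in place of complexes III and IV. The route is known for keeping the electron carriers oxidised under stress, and AOX1A is a standard marker of signalling from disturbed mitochondria to the nucleus, with NDB2 often co-expressed with it in other Arabidopsis stress experiments.

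Of the 21500 probes, 94.4% to 96.4% exceeded background clearly, depending on the channel, and the median signal of a channel was 4.60 to 8.62 times its local background. All 10 root marker genes were well above background in every channel, and so were all 8 green shoot markers. The root markers themselves differed between the treatments: 6 of 10 passed the test as lower in aluminium roots and 0 as higher. Over all genes tested 6.48% were lower and 8.25% higher. The median log2 ratio of the root markers was -0.54. Their summed normalised signal was 30577 and 33662 in aluminium roots, against 46952 and 61337 in control roots. Of the shoot markers 2 of 8 were lower and 0 higher, and their median log2 ratio was 0.036. Their summed signals were 5215 and 4665 in aluminium roots and 5507 and 5009 in control roots. Such sums weigh the brightest probes most. The part of these shifts in the ratios given below was not tested, and in RNA of whole roots fewer cells of a type and less RNA per cell cannot be told apart.

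Aluminium roots held more transcript of the matrix-side dehydrogenase gene NDA2 and the outer-side dehydrogenase gene NDB2, about 2-fold each, and less of a second outer-side dehydrogenase gene, NDB4. None of the 5 alternative oxidase genes passed the test, and AOX1A had nearly the same signal with and without aluminium. Of the 10 genes 2 were called higher and 1 lower at an adjusted p under 0.05 in limma, where 8.25% of the genes tested were called higher and 6.48% lower, or 14.7% in all. At an unadjusted p under 0.05 there were 6 of 10, against 30.7% of all genes. The median log2 ratio of the 10 genes was 0.13, against 0.0022 over all genes. Each ratio is on the log2 scale, aluminium over control, and is followed by the SD of its 2 array values. The adjusted p-values are those of limma with Benjamini-Hochberg adjustment over all 19194 genes.

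**Figure D1:**
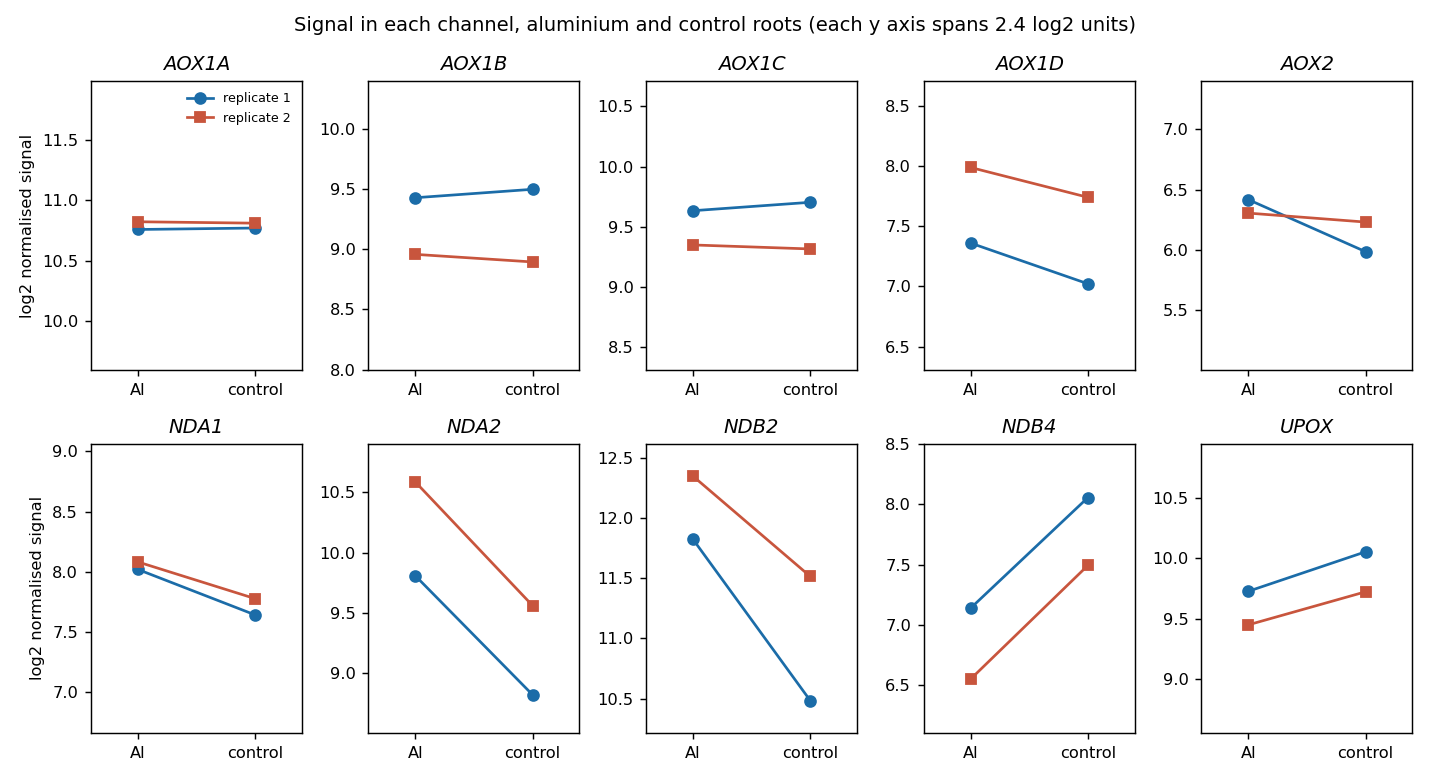
Log2 normalised signal (vertical axis) of each gene in aluminium (left) and control (right) roots, with a line joining the 2 channels of an array. The lines of NDA2 and NDB2 fall from aluminium to control on both arrays, those of NDB4 run the other way, and those of AOX1A are level, between 10.76 and 10.82.

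NDA2 (AT2G29990) encodes a matrix-side dehydrogenase, and its probe is listed on chromosome 2 from 12800710 to 12800651, in positions of a genome build that the array files do not name. Its log2 signal was 9.81 on replicate 1 and 10.59 on replicate 2 in aluminium roots, against 8.82 and 9.56 in control roots. Both aluminium values lay above both control values, and on both treatments the signal was higher on replicate 2. Within arrays the log2 ratios were 0.99 and 1.03, a mean of 1.01 ± 0.027 (SD), or 2.01-fold higher, with a 95% interval of 0.77 to 1.24 and an adjusted p of 0.0060. This placed NDA2 at rank 441 from the top among all genes tested. The related gene NDA1 (AT1G07180), whose product also faces the matrix, had log2 signals of 8.02 and 8.08 in aluminium roots and 7.64 and 7.78 in control roots. The treatments did not overlap, but the difference was small beside that of NDA2. Its ratio of 0.34 ± 0.051 did not pass (adjusted p = 0.076, interval 0.10 to 0.58).

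NDB2 (AT4G05020), the outer-side dehydrogenase gene best known from stress responses, with its probe on chromosome 4 at 2576386 to 2576445, had log2 signals of 11.82 and 12.35 in aluminium roots and 10.48 and 11.51 in control roots. Again the lower aluminium value exceeded the higher control value. The array ratios were further apart than those of NDA2, at 1.34 on replicate 1 and 0.83 on replicate 2, and their mean was 1.09 ± 0.36, or 2.12-fold higher (interval 0.71 to 1.46, adjusted p = 0.014). NDB2 stood at rank 380 of all genes, and its interval overlapped that of NDA2.

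NDB4 (AT2G20800), also of the outer-side group, with its probe on chromosome 2 listed from 8960636 to 8960577, went the opposite way. Its log2 signals were 7.14 and 6.55 in aluminium roots, against 8.06 and 7.49 in control roots. Both aluminium values were below both control values, and the array ratios of -0.92 and -0.94 were close to each other. The mean of -0.93 ± 0.018 was 1.91-fold lower (interval -1.17 to -0.69, adjusted p = 0.0070), at rank 313 from the bottom. The probe was dim: the scanned signal was 2.70 and 1.85 times the local background in the aluminium channels, against 5.89 and 3.24 times in the control channels. The size differed between settings. The mean ratio was -0.72 without background correction, -1.51 from the scanner software's own ratios and -1.72 in the series matrix values. In the last 2 the arrays were further apart, at -1.29 and -1.73 (scanner software) and -1.29 and -2.15 (series matrix). The cause of the differences in these last 2 settings was not tested.

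The calls of NDA2, NDB2 and NDB4 ended under the same 3 alternatives. With the scanner software's ratios limma's adjusted p was 0.055, 0.076 and 0.058 for NDA2, NDB2 and NDB4, with the series matrix values it was 0.066, 0.087 and 0.082, and with the channels fitted separately and no array term it was 0.53, 0.53 and 0.45, while the direction was kept in each case.

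**Figure D2:**
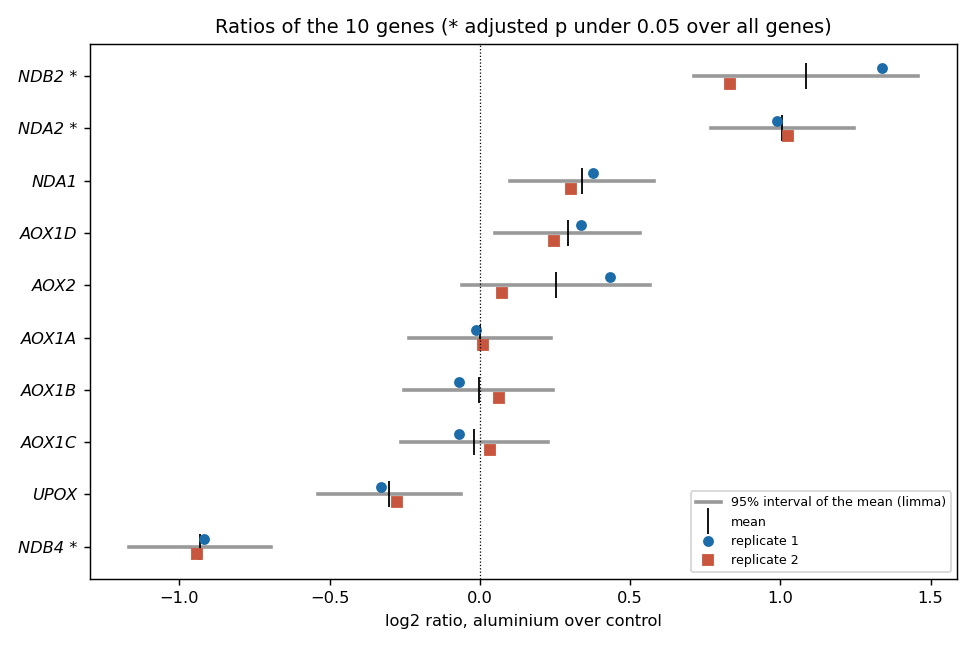
Log2 ratio of aluminium over control (horizontal axis) for each gene, with the 2 arrays as points, their mean as a vertical tick and limma's 95% interval as a grey bar. NDB2 and NDA2 stand apart at the high end with means of 1.09 and 1.01, NDB4 at the low end with -0.93, and the bars of AOX1A, AOX1B and AOX1C are centred near 0.

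The alternative oxidases are the terminal enzymes of the route, and AOX1A (AT3G22370) is a stress-responsive member in Arabidopsis. Its log2 signals were 10.76 and 10.82 in aluminium roots and 10.77 and 10.81 in control roots. All 4 values lay within a narrow band, with no order between treatments. The array ratios were -0.012 and 0.012, with a mean of -0.00023 ± 0.017. The 95% interval of -0.24 to 0.24 leaves room for a difference (limma's adjusted p = 0.999). Its width leans mostly on the spread of all genes, as limma's SE for AOX1A was 0.092. The probe was well above background in every channel, at 27.5 and 30.8 times the local background in aluminium roots and 46.1 and 15.7 times in control roots, and no channel of any of the 10 genes was saturated. The scanner software's own log2 ratios of AOX1A were -0.028 and 0.0036, each with a software error of 0.16.

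AOX1B (AT3G22360), the neighbour of AOX1A on chromosome 3, had log2 signals of 9.43 and 8.96 in aluminium roots, against 9.50 and 8.89 in control roots. AOX1C (AT3G27620) had 9.64 and 9.35 in aluminium roots and 9.70 and 9.32 in control roots. In both genes the difference between arrays was several times that between treatments, and the sign changed from array to array. Their mean ratios were -0.0035 ± 0.094 for AOX1B and -0.018 ± 0.073 for AOX1C, with intervals of -0.25 to 0.24 and -0.26 to 0.23. The array files place the AOX1B probe at chromosome 3, 7904972 to 7905031, and the AOX1A probe at 7908096 to 7908155, which is 3065 bases further on. They name no exon for any of the probes. The AOX genes resemble each other in sequence, and whether their probes also take up each other's transcripts was not tested.

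AOX1D (AT1G32350), a further member of the AOX1 group, had log2 signals of 7.36 and 7.99 in aluminium roots and 7.02 and 7.74 in control roots. Aluminium was the higher channel on each array, but the ranges overlapped across arrays. The ratio of 0.29 ± 0.064 had an interval of 0.05 to 0.53 and an unadjusted p of 0.026 in limma, and did not pass over all genes (adjusted p = 0.11). AOX1D was the 1 oxidase gene of 5 with an unadjusted p under 0.05.

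AOX2 (AT5G64210), the only AOX2-type gene of Arabidopsis, was close to background. Its scanned signal was 2.01 and 1.65 times the local background in aluminium roots, against 1.32 and 2.05 times in control roots, where replicate 1 was not well above background. Normalised log2 signals were 6.42 and 6.30 in aluminium roots and 5.98 and 6.23 in control roots. These ranges did not overlap, yet the ratio of 0.43 on replicate 1 rests on a control channel near background, and replicate 2 gave 0.074. The mean was 0.25 ± 0.25 (interval -0.06 to 0.57, adjusted p = 0.24). No other gene of the 10 moved as far with the processing: its mean ratio was 1.10 with the scanner software's ratios and 1.57 in the series matrix values, and it passed the test in neither.

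The probes of AOX1D and AOX2 are listed over 157 and 302 positions of the genome, whereas the other 8 are listed over 60 positions each. On chromosome 1 the AOX1D probe is listed from 11667381 to 11667225, and on chromosome 5 the AOX2 probe from 25701504 to 25701203.

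UPOX (AT2G21640) had log2 signals of 9.73 and 9.45 in aluminium roots and 10.06 and 9.72 in control roots. Aluminium was the lower channel on each array, and the ranges overlapped narrowly. The ratios of -0.33 and -0.27 averaged -0.30 ± 0.038 (interval -0.54 to -0.06), and the gene did not pass (adjusted p = 0.099). Oxidative stress is known to raise its transcript, and here the value was below 0 on both arrays.

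Taken by role, 4 of 4 dehydrogenase genes had array ratios of 1 sign, 3 positive and 1 negative, where 71.4% of all genes had 1 sign on both arrays, and in all 4 the signals of aluminium and control roots did not overlap. Of the 5 oxidase genes 2 were positive on both arrays, 3 changed sign between arrays, and the signals were apart in AOX2 alone. Over the 10 genes the signals of the treatments did not overlap in 5, with aluminium above in 4 and below in 1. Among all genes 34.6% did not overlap, 17.7% with aluminium above and 16.9% with aluminium below. Ordered by mean ratio in the main setting, NDB2 and NDA2 came first with overlapping intervals, and NDA1, AOX1D, AOX2, AOX1A, AOX1B, AOX1C, UPOX and NDB4 followed. From NDA1 down to UPOX each interval overlapped that of the next gene. The interval of NDA2 did not overlap that of NDA1, and the interval of NDB4 did not overlap that of UPOX.

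By their 2 ratios, the genes with a symbol nearest to AOX1A were SWC2, UCP3 and THO1, at Euclidean distances of 0.0028, 0.0043 and 0.0046 on the log2 scale. A ratio near 0 is common, and 2459 genes lay within 0.1 of AOX1A on this measure.

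Of the other genes of these families, none passed: 0 of 4 were called in limma, and 1 had an unadjusted p under 0.05. Over all genes tested 14.7% were called and 30.7% had an unadjusted p under 0.05. The outer-side dehydrogenase gene NDB1 had ratios of -0.67 and -0.21 on the 2 arrays (adjusted p = 0.099), and NDB3, of the same group, had 0.62 and 0.04 (adjusted p = 0.24). NDC1, whose product occurs in plastids as well as mitochondria, had -0.04 ± 0.094, and the plastid terminal oxidase gene PTOX, a distant relative of the alternative oxidases, had -0.04 ± 0.15. With these included, values above and below 0 were found within the NDB group.

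**Figure D3:**
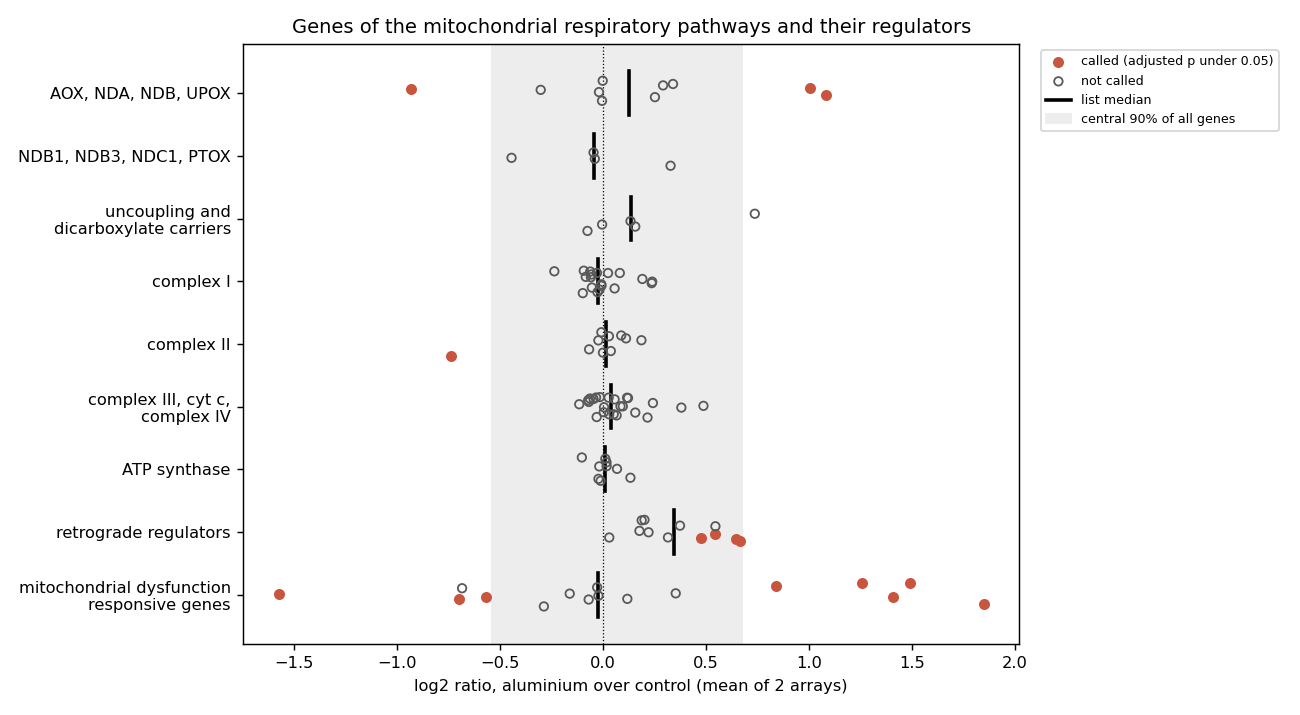
Mean log2 ratio of aluminium over control (horizontal axis) for the genes of each list, filled where the adjusted p was under 0.05, with the list median as a black tick and the central 90% of all genes shaded. The respiratory complexes lie between -0.24 and 0.49 apart from SDH1-2 at -0.74, the retrograde regulators have means from 0.03 to 0.67, and the mitochondrial dysfunction responsive genes spread from -1.57 to 1.85.

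The genes listed as regulators of signalling from mitochondria to the nucleus (retrograde regulators) include both activators and repressors of AOX1A. The listed genes that passed the test were all higher in aluminium roots. Of 13 listed, 12 were tested, 4 rose (33.3%, against 8.25% of all genes) and 0 fell (against 6.48%). An unadjusted p under 0.05 was found in 6 (50%, against 30.7% of all genes). The median log2 ratio was 0.35, with 0.41 on replicate 1 and 0.32 on replicate 2, against 0.0022 over all genes. Those that rose were WRKY15, a WRKY factor of the mitochondrial stress response (0.67 ± 0.20, adjusted p = 0.023), NAC078 (0.54 ± 0.034, adjusted p = 0.024) and NAC053 (0.48 ± 0.099, adjusted p = 0.037), a pair of related NAC factors, and RCD1 (0.65 ± 0.20, adjusted p = 0.025), whose product binds and restrains NAC013 and NAC017. All 4 had values above 0 on both arrays. NAC017 and NAC013, the membrane-bound NAC factors that activate AOX1A and UPOX, had 0.19 ± 0.11 and 0.20 ± 0.072 and did not pass (adjusted p = 0.27 and 0.23). WRKY40 and ABI4, repressors of AOX1A, differed between arrays, with 1.17 and -0.07 for WRKY40 and 0.42 and -0.07 for ABI4. With median centring in place of loess, limma called 0 of the 12, while the ratios were 0.71 for WRKY15, 0.53 for NAC078, 0.55 for RCD1 and 0.50 for NAC053. It also called 0 with the scanner software's ratios, the series matrix values or no array term.

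Genes known to respond to mitochondrial dysfunction went both ways. Of 18 listed, 16 were tested, 5 rose (31.25%, against 8.25% of all genes) and 3 fell (18.75%, against 6.48%). An unadjusted p under 0.05 was found in 10 (62.5%, against 30.7% of all genes), and the median log2 ratio of the list was -0.024. The glutathione transferase gene GSTU24 rose by 1.85 ± 0.64 (adjusted p = 0.010), OM66 (AT3G50930), which encodes an ATPase of the outer mitochondrial membrane, by 1.49 ± 0.63 (adjusted p = 0.016) and the cytochrome P450 gene CYP81D8 by 1.26 ± 0.30 (adjusted p = 0.0079). The glycosyltransferase gene UGT74E2 had -1.57 ± 0.15 (adjusted p = 0.0033). The other 2 lower genes, named after their values were seen, encode mitochondrial chaperones. They were HSP60 (-0.70 ± 0.17) and the mitochondrial HSP70 gene AT4G37910, listed here as HSC70-1 (-0.57 ± 0.030). GSTU24 and GSTU25, both among the 5 that rose, lie in a tandem repeat of similar genes, and whether their probes separate them was not tested. With median centring 1 of the 3 lower calls was left, and with the scanner software's ratios 0 of the 5 higher and 1 of the 3 lower.

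Among genes of the respiratory complexes and the ATP synthase, 1 passed the test. It encodes a subunit of complex II, which the alternative route does not bypass. Of 66 listed genes of complexes I to IV, cytochrome c and the ATP synthase, 62 were tested, 0 were higher and 1 was lower. Over all genes tested 8.25% were higher and 6.48% lower. In the bypassed part, 0 of 19 genes of complex I were called, and 0 of 24 of complexes III and IV with cytochrome c. An unadjusted p under 0.05 was found in 4 of the 62, against 30.7% of all genes. The median of the 62 was 0.0055 (0.015 on replicate 1 and 0.014 on replicate 2), and the values ran from -0.74 to 0.49. The gene that fell was SDH1-2, which encodes a copy of the flavoprotein subunit of succinate dehydrogenase in complex II, with array ratios of -0.74 and -0.74 (adjusted p = 0.011). SDH1-2 did not pass with ratios of the scanner software (limma's adjusted p = 0.063), with the series matrix values (0.074) or with no array term (0.26). Its partner gene SDH1-1 had -0.0067 ± 0.11. The highest value was that of the cytochrome c gene CYTC-2, with 0.83 and 0.14 on the 2 arrays (adjusted p = 0.14).

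Uncoupling and dicarboxylate carriers dissipate the proton gradient or move organic acids across the inner membrane. Of 5 tested, 0 were called in limma, where 14.7% of all genes were called. An unadjusted p under 0.05 was found in 1 of the 5, against 30.7% of all genes. It was the dicarboxylate carrier gene DIC1, with 1.13 on replicate 1 and 0.35 on replicate 2 (adjusted p = 0.070). With median centring DIC1 was called higher, at 0.78 (limma's adjusted p = 0.023). The uncoupling protein genes UCP1, UCP2 and UCP3 had -0.07 ± 0.31, 0.16 ± 0.019 and -0.0031 ± 0.018.

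**Figure D4:**
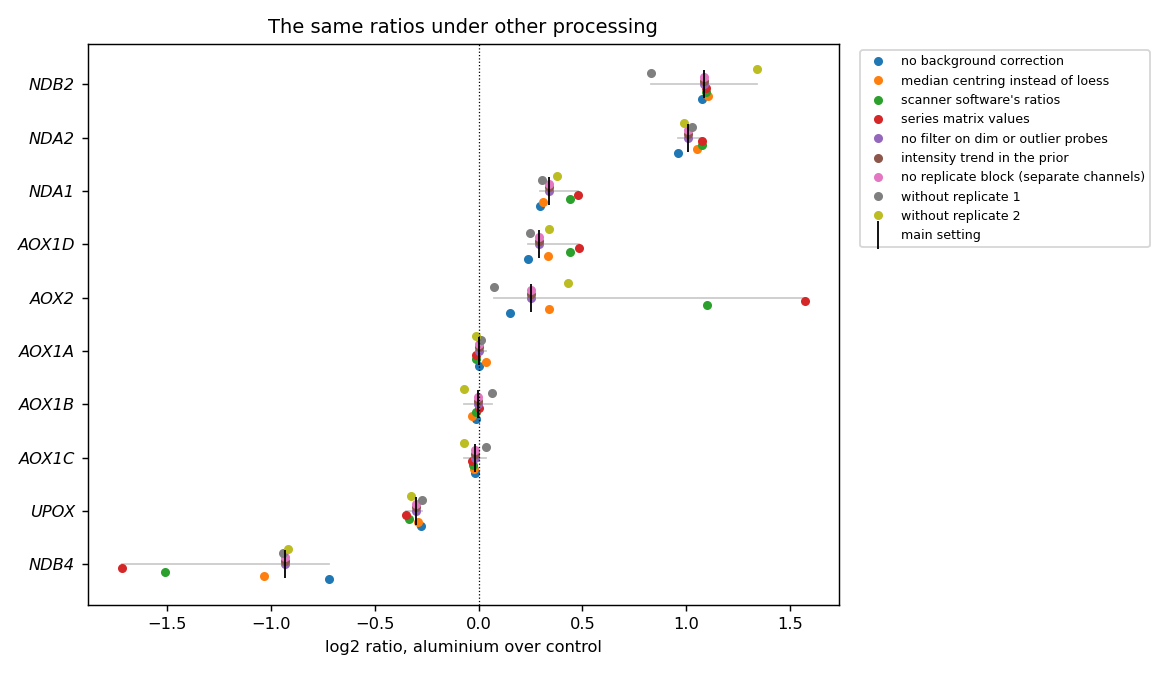
Mean log2 ratio of aluminium over control (horizontal axis) for the 10 genes under each alternative processing (coloured points) and in the main setting (black tick). AOX2 reaches 1.57 and NDB4 -1.72 in the series matrix values, while AOX1A stays between -0.012 and 0.034 throughout.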

How the data were processed

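Spot intensity in both channels, not normalized, was taken from the deposited scanner output, made per the file headers with Feature Extraction 8.1.1.1 (replicate 1) and 7.1.1 (replicate 2), while the submitters' processing notes name 9.5.1.1. Also deposited were a log10 ratio (Cy5 over Cy3) with its error from the same software, printed here on the log2 scale, a p-value per spot that the authors' software gave (not used here), and other measures of error. The authors' series matrix holds log2 values, whose normalization is not given in the sources used here. Set against the scanner ratios (r = 0.998 and 0.887) they ran as aluminium over control, with medians of -0.010 and -0.011.

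The background of each spot's mean signal was removed by normexp (offset 50), using the local median, and loess was applied within each array, with control spots at weight 0 (limma 3.58.1, R 4.3.3), and replicate 1 was turned to aluminium over control. Of 21500 probes 108 with outlier marks, 1151 dim on an array (above background in neither channel) and 1047 without a locus shared by both layouts were left out. Channel signals were scaled with Aquantile and are not comparable between genes. Ratios were tested against 0 with lmFit and eBayes, two-sided. Residual degrees of freedom were 1 and prior ones 4.06. With 2 arrays an exact sign-flip test could not reach 0.05, so p-values lean on the spread of all genes. All 10 loci matched RefSeq's TAIR10.1 genes, which gave the symbols of all but UPOX, a common name of AT2G21640. The procedure was tested on simulated data.

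The 10 genes and the 8 pathway lists (107 loci) were chosen with earlier results of these data known. Named genes are the 10, all 4 relatives, and up to 4 passing genes per other list by smallest p. Values given beside them for genes that did not pass were chosen after they were seen.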

Additional observations from a re-analysis of the deposited data

How the results depend on the processing

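No paired analysis beyond the ratios themselves was possible because each array already pairs an aluminium and a control RNA. NDA2, NDB2 and NDB4 kept their direction in every alternative run, and their calls held with no background correction, with median centring, with all probes kept and with an intensity trend in the prior. With median centring limma's smallest adjusted p over all genes was 9.9e-68 from 2 arrays. There the adjusted p was 0.00025 for NDB2, 0.00060 for NDA2 and 0.00076 for NDB4, in the order of ratio size (1.11, 1.05 and -1.04). A call in that setting therefore says little about the spread between a gene's arrays. Without replicate 1 or replicate 2, values with no test, the ratios were 1.03 and 0.99 for NDA2, 0.83 and 1.34 for NDB2 and -0.94 and -0.92 for NDB4. With the scanner software's ratios the values were 1.08 for NDA2, 1.10 for NDB2 and -1.51 for NDB4, with the series matrix values 1.07, 1.10 and -1.72, and without the replicate block, from separate channels, 1.01, 1.09 and -0.93, none past the threshold. Under each of these 3, limma called 0 of the 10 genes higher and 0 lower, with 6, 7 and 2 at an unadjusted p under 0.05. Median centring left 3 of the 10 at an unadjusted p under 0.05, against 6 in the main setting. Aluminium was higher in 1583 genes of the whole table and lower in 1243 in the main setting, 889 and 586 with median centring, 170 and 118 with the scanner software's ratios, and 0 and 0 both with the series matrix values (5073 at an unadjusted p under 0.05) and without the replicate block (1823). Over the 8 other lists 9 genes were higher and 4 lower in the main setting. With median centring 6 were higher and 2 lower, the 6 without the 4 retrograde regulators and with DIC1 added. With the scanner software's ratios 0 were higher and 1, UGT74E2, lower, and with the series matrix values or without the replicate block 0 were higher and 0 lower. The cause of these differences was not tested. Signal over background limits AOX2 and NDB4 most, and 2 arrays limit every value.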
